A study of Mus musculus with 8 samples.

Results

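ATP-dependent chromatin remodellers are enzyme complexes that slide, eject or exchange nucleosomes, and 45 genes for their subunits were followed through the transcriptome of the mouse medial prefrontal cortex. The genes were chosen by name and function, with earlier results of these data known. They comprised 26 of the SWI/SNF (BAF and PBAF) complexes, 9 of the CHD family and 6 of the ISWI family. The others were the 3 large ATPases Ino80, Srcap and Ep400, and Atrx. Each name matched 1 of the 54532 genes in the deposited count table, and all 45 were among the 16745 genes with enough counts to be tested. The libraries came from adult male C57BL/6 mice, and the series gives the time of dissection as 1 h after a test of conditioned place preference, in which methamphetamine had been paired with a place. There were 4 libraries labelled retrieval and 4 labelled non-retrieval, and the labels name no transgene, deletion or other agent in either group. Each library was a pool of 2 or 3 mice, so the p-values below measure the spread between pools. How the non-retrieval mice were handled is not given in the sources used here.

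As background, remodellers use ATP to change where nucleosomes lie. SWI/SNF complexes open regulatory DNA, ISWI enzymes space nucleosomes evenly, CHD enzymes do both in different complexes, and the INO80 and SRCAP enzymes exchange histone variants such as H2A.Z. When neural precursors leave the cell cycle, SWI/SNF subunits are exchanged for neuronal ones. Actl6b (BAF53b) takes the place of Actl6a (BAF53a), Dpf1 and Dpf3 that of related subunits, and Ss18l1 (CREST) that of Ss18. In mice, Actl6b is required for long-term memory.

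Counts per library ran from 26275500 to 29470438 in retrieval and from 25013503 to 29547978 in non-retrieval. The reads of the 45 genes made up 0.485% to 0.496% of each retrieval library and 0.450% to 0.491% of each non-retrieval library. Markers of the cortex were high, with Slc17a7, the vesicular glutamate transporter of cortical excitatory neurons, at 1276 to 1470 TPM over the 8 libraries. Immediate early genes were far apart between groups, Egr1 standing at 601 to 716 CPM in retrieval and 157 to 244 CPM in non-retrieval. Retrieval replicate 2 stood apart in markers of striatal projection neurons, with 533 CPM summed over 12 markers, against 317 to 391 CPM in the other retrieval libraries and 322 to 377 CPM in non-retrieval.

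Among the 45 genes, 3 rose in retrieval, 0 fell and 42 did not pass the test. The 3 were Chd7, a CHD enzyme whose loss of function causes CHARGE syndrome in humans, Baz1a (ACF1), the partner of an ISWI motor in the nucleosome-spacing complex ACF, and Srcap, which loads H2A.Z into nucleosomes. The 3 calls are 6.67% of the members, whereas 4.65% of all tested genes were called in either direction, 3.72% of them higher and 0.932% lower, so the members' share lay near the background. A gene was called at an adjusted p under 0.05 in edgeR's quasi-likelihood test, the p-values being adjusted over the 16745 genes by the method of Benjamini and Hochberg. At an unadjusted p under 0.05, 13 members were higher and 1 was lower in edgeR, together 31.1% of the members, against 18.6% of all tested genes (11.2% higher and 7.33% lower). The median log2 fold change (retrieval over non-retrieval) was 0.06 over the members and -0.01 over all tested genes. A positive fold change was found in 34 of 45 members, against 47.8% of all tested genes. Most differences were small: 41 members lay within 0.25 and 25 within 0.1 of zero on the log2 scale. The retrieval libraries lay wholly above the non-retrieval libraries in 7 members and wholly below them in 1, together 17.8% of the members, and the groups did not overlap in 11.1% of all tested genes, 6.59% with retrieval above and 4.53% with retrieval below.

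Other fits called other numbers of members, and of all genes. DESeq2 called 5 members higher and 0 lower, against 6.11% of all genes (4.76% higher and 1.36% lower). By limma-voom 7 members were higher and 1 was lower, against 9.67% of all genes (6.63% higher and 3.04% lower). A fit with an offset for length and GC called 4 members higher and 1 lower, against 8.13% of all genes (5.33% higher and 2.81% lower). That offset changed the split over all genes, with 892 higher and 470 lower, against 623 higher and 156 lower without it. With the mean log2 level of 12 myelin-related markers as a covariate, 1 member was higher and 0 lower, against 0.746% of all genes (0.675% higher and 0.0717% lower). With the replicate number as a block, 11 members were higher and 0 lower, against 12.1% of all genes (8.3% higher and 3.76% lower). The 11 members were Chd7, Baz1a, Srcap, Arid1a, Baz2a, Chd9, Dpf1, Arid2, Chd2, Baz2b and Chd3.

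**Figure D1:**
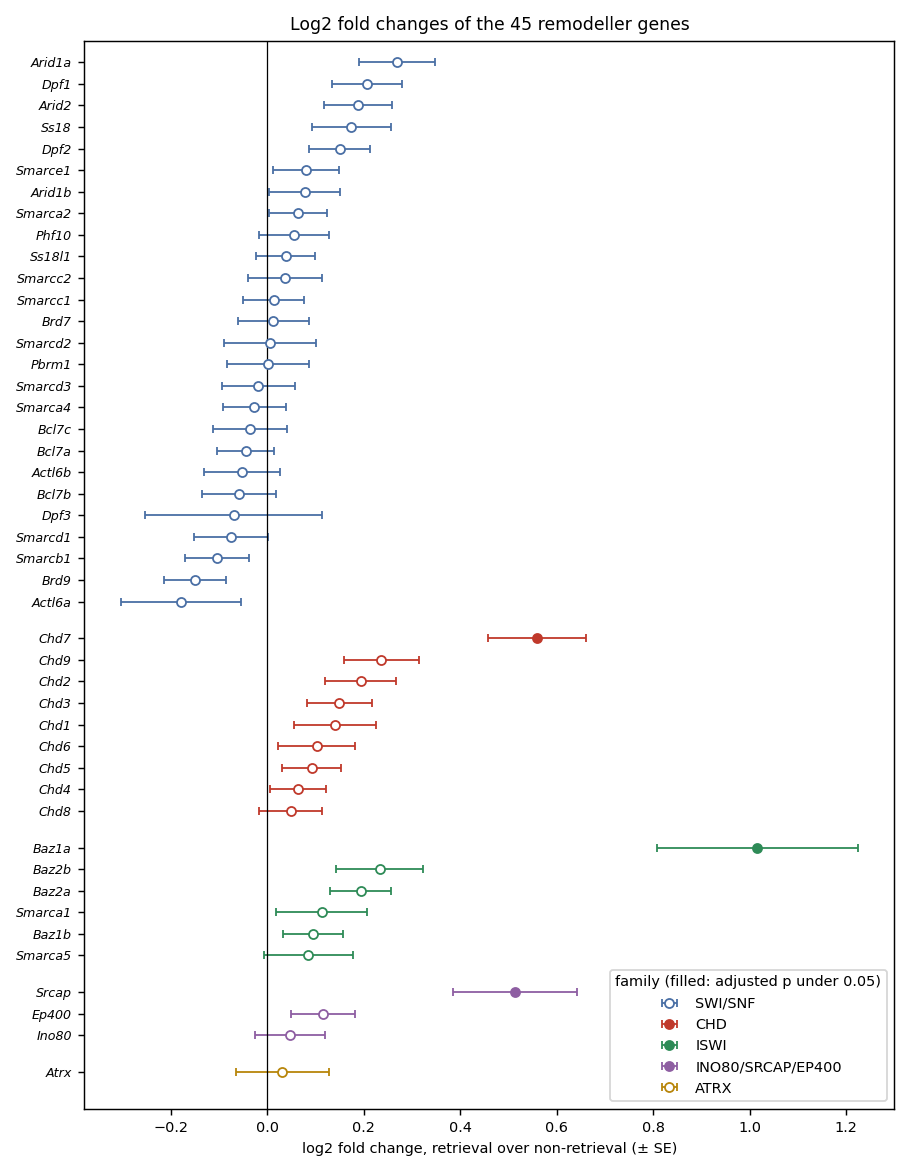
Log2 fold change of each of the 45 genes, retrieval over non-retrieval, with its standard error, grouped by family and sorted within it. Filled points mark adjusted p under 0.05. Chd7, Baz1a and Srcap stand apart, and the SWI/SNF genes scatter on both sides of zero.

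Chd7 had the smallest p of the 45 genes. Its level was 14.1, 18.95, 15.7 and 16.6 CPM in retrieval replicates 1 to 4, against 12.3, 11.1, 10.1 and 10.8 CPM in non-retrieval replicates 1 to 4. Every retrieval library was above every non-retrieval library, with replicate 2 the highest of all and retrieval replicate 1 the closest to the other group. Chd7 averaged 16.3 ± 2.04 CPM in retrieval and 11.1 ± 0.92 CPM in non-retrieval (SD, n = 4 each), a 1.47-fold rise (log2 fold change 0.56, SE 0.10; edgeR adjusted p = 0.0034). It was the gene with rank 159 of the 16745 by p. Each of the 8 fits that left out a library called it (edgeR adjusted p at most 0.0225). Chd7 (ENSMUSG00000041235) lies on the plus strand of chromosome 4 from 8690406 to 8867659 in GRCm38.

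Markers of mature oligodendrocytes were also higher in retrieval. Summed over 12 mature oligodendrocyte markers, the level was 4188, 6051, 4176 and 5502 CPM in retrieval replicates 1 to 4, against 3449, 4062, 3680 and 3444 CPM in non-retrieval replicates 1 to 4. Retrieval replicates 2 and 4, the highest in these markers, were also the highest in Chd7, but the order differed within non-retrieval, where replicate 1 was the highest in Chd7 and replicate 2 the highest in the markers. The part of these cells in the value of Chd7 was not tested. Of the 12 markers 6 rose and 6 did not pass, and the median over the list was 0.40 on the log2 scale. Among 10 markers of precursors of these cells, 8 did not pass and 2 rose, Gpr17 and Bcas1. The sum over all 10 precursor markers was 398 to 531 CPM in retrieval and 384 to 446 CPM in non-retrieval. With the mean log2 CPM of the 12 mature markers as a covariate, the log2 fold change of Chd7 was 0.36 (SE 0.15; edgeR adjusted p = 0.345). The covariate itself did not overlap between groups, at 6.95 to 7.41 in retrieval and 6.72 to 6.92 in non-retrieval. The covariate fit thus cannot cleanly separate group from markers. Without retrieval replicates 2 and 4 the log2 fold change of Chd7 was 0.42 (edgeR adjusted p = 0.0508). Markers of progenitor and dividing cells did not overlap between groups either. Over the 8 that were tested, mean log2 CPM was 2.56 to 3.03 in retrieval and 2.20 to 2.42 in non-retrieval. Of these 8, 2 were called higher, against 3.72% of all tested genes. Within non-retrieval, replicate 1 was the highest and replicate 3 the lowest in both this mean and Chd7. The part of such cells in the value of Chd7 was not tested. In tissue, more cells of a type and more RNA per cell cannot be told apart.

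Baz1a had the largest fold change of the 45 genes and the lowest length-corrected level. It stood at 3.23, 2.34, 4.52 and 3.95 CPM in retrieval replicates 1 to 4, against 1.94, 1.33, 1.71 and 1.92 CPM in non-retrieval replicates 1 to 4. The groups did not overlap, although retrieval replicate 2 was close to the non-retrieval libraries. The counts behind these values were 66 to 118 reads per retrieval library and 33 to 57 reads per non-retrieval library. Baz1a averaged 3.51 ± 0.94 CPM in retrieval and 1.72 ± 0.28 CPM in non-retrieval (SD, n = 4 each), a 2.02-fold rise (log2 fold change 1.02, SE 0.21; edgeR adjusted p = 0.00829). It was called in each of the 8 fits that left out a library (largest edgeR adjusted p = 0.039) and with the myelin covariate (log2 fold change 1.48, SE 0.29; edgeR adjusted p = 0.013). Baz1a (ENSMUSG00000035021) lies on the minus strand of chromosome 12 from 54892989 to 55014348 in GRCm38.

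Srcap rose less firmly. Its level was 7.54, 9.72, 7.74 and 7.64 CPM in retrieval replicates 1 to 4, against 5.14, 6.96, 5.10 and 5.72 CPM in non-retrieval replicates 1 to 4. The groups did not overlap, and replicate 2 was the highest library of each group. Srcap averaged 8.16 ± 1.05 CPM in retrieval and 5.73 ± 0.87 CPM in non-retrieval (SD, n = 4 each), a 1.43-fold rise (log2 fold change 0.51, SE 0.13; edgeR adjusted p = 0.0272). The call held in 3 of the 8 fits that left out 1 library and was lost when retrieval replicate 2 or 3, or non-retrieval replicate 1, 3 or 4, was left out (adjusted p in edgeR between 0.052 and 0.101). With the myelin covariate the log2 fold change was 0.25 (SE 0.19; edgeR adjusted p = 0.614). Srcap (ENSMUSG00000053877) lies on the plus strand of chromosome 7 from 127511983 to 127561219 in GRCm38. A second annotated gene on the same strand, Gm42715, shares 61.7% of its exonic bases. How reads that fit both were counted is not given, so the value of Srcap is uncertain. Gm42715 itself was near zero, at 0.451 CPM in retrieval and 0.469 CPM in non-retrieval.

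**Figure D2:**
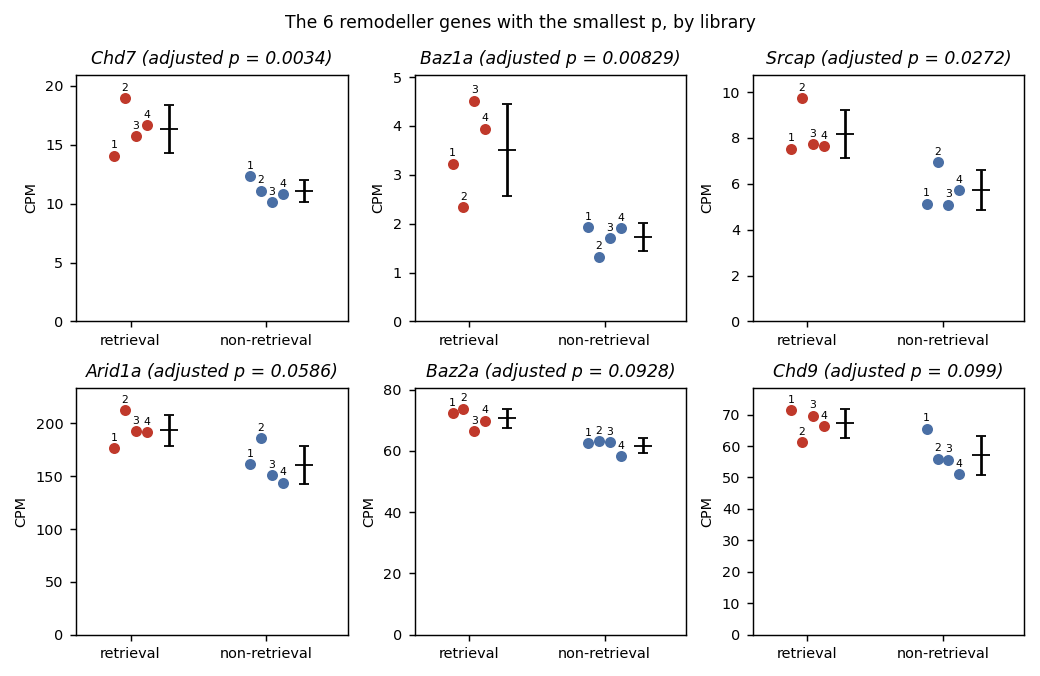
CPM of the 6 members with the smallest p in each library, numbered by replicate, with the mean and SD beside the points. The groups are separate for Chd7, Baz1a, Srcap and Baz2a, and overlap for Arid1a and Chd9.

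The promoter of Srcap is the one shown for the called genes, because RefSeq windows (250 bases before to 50 after the annotated start, GRCm38.p6) were at hand for 36 of the 45 members and Chd7 and Baz1a were not among them. Windows were searched on both strands for elements of activity-regulated promoters: the cAMP response element TGACGTCA, the AP-1 element TGANTCA, the EGR element GCGNGGGCG and the CArG box bound by SRF. The window of Srcap held none of these letters. Baz2b, an ISWI partner, is printed beside it as the only member of the 36 searched with a complete cAMP response element. The element is in capitals and begins 24 bases before an annotated transcript start. That start lies inside the gene, which spans 59899363 to 60209839 on the minus strand of chromosome 2.
Srcap promoter, chr7:127511733-127512032, plus strand: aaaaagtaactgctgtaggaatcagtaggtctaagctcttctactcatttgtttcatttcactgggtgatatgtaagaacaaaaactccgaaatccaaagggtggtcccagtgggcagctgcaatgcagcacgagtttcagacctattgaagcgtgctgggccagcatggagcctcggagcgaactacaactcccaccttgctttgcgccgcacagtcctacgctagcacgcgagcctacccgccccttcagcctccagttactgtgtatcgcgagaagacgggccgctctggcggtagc
Baz2b promoter, chr2:60125691-60125990, minus strand: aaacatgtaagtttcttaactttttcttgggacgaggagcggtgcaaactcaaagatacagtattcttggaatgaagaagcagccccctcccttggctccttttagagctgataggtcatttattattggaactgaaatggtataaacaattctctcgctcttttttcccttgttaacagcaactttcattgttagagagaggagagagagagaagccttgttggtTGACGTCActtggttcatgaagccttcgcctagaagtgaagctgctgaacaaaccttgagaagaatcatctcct

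The cAMP response element was present in 1.79% of all 32851 RefSeq windows and in 1 of the 41 member windows. The AP-1 element was present in 7.81% of all windows and in 2 member windows, those of Smarca2 and Smarcb1. The EGR element was present in 5.55% of all windows and in 3 member windows, those of Ino80, Smarca4 and Smarca5. The CArG box was present in 1.63% of all windows and in 0 member windows. The AP-1 letters do not occur inside the cAMP response element. A match of letters shows no binding, and a window without one says nothing of the factor.

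None of the 26 SWI/SNF genes was called in the main edgeR fit. In that fit 5 were higher and 1 was lower at an unadjusted p under 0.05. Of all tested genes, 11.2% reached that level as higher and 7.33% as lower. DESeq2 called 1 of the 26, Arid1a, and limma-voom called Arid1a higher and Brd9 lower. The median log2 fold change of the family was 0.01, and 15 of its genes had a positive and 11 a negative value. Arid1a, the DNA-binding subunit that defines the canonical BAF complex, came closest. It stood at 177, 213, 193 and 192 CPM in retrieval replicates 1 to 4, against 161, 186, 151 and 144 CPM in non-retrieval replicates 1 to 4. Retrieval replicate 1 lay below non-retrieval replicate 2, so the groups overlapped (log2 fold change 0.27, SE 0.08; edgeR adjusted p = 0.0586). Arid1a was called with the replicate block (edgeR adjusted p = 0.000384) and with block and offset together (edgeR adjusted p = 0.00516). It was also called without a low-count filter (edgeR adjusted p = 0.00656) and in 2 of the 8 fits that left out a library. With the myelin covariate the log2 fold change of Arid1a was 0.09 (edgeR adjusted p = 0.783). Its paralog Arid1b, which occupies the same place in other BAF complexes, had a log2 fold change of 0.08 (SE 0.07; edgeR adjusted p = 0.622).

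The 2 alternative motor subunits of SWI/SNF were closely matched between groups. Smarca4 (BRG1) averaged 190 ± 13.6 CPM in retrieval and 194 ± 8.22 CPM in non-retrieval, and Smarca2 (BRM) 357 ± 18.05 CPM in retrieval and 342 ± 11.3 CPM in non-retrieval (SD, n = 4 each). The log2 fold changes were -0.03 (SE 0.07) for Smarca4 and 0.06 (SE 0.06) for Smarca2, both within the spread between libraries. The core subunits that hold the complex together, Smarcb1, Smarcc1, Smarcc2, Smarcd1, Smarcd2, Smarcd3 and Smarce1, had log2 fold changes from -0.10 for Smarcb1 to 0.08 for Smarce1. Smarcd3 shares 48.2% of its exonic bases with Chpf2 on the opposite strand, so its count is uncertain without a stated strand setting.

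None of the neuronal subunits of SWI/SNF passed in the main edgeR fit, although Dpf1 came near. Actl6b averaged 75.6 ± 7.11 CPM in retrieval and 78.4 ± 6.89 CPM in non-retrieval (SD, n = 4 each; log2 fold change -0.05, SE 0.08). Ss18l1 averaged 70.3 ± 3.0 CPM in retrieval and 68.5 ± 1.96 CPM in non-retrieval (SD, n = 4 each; log2 fold change 0.04, SE 0.06). Dpf1, a histone-reading subunit of neuronal BAF, stood at 59.0, 70.03, 60.4 and 61.2 CPM in retrieval replicates 1 to 4, against 48.7, 56.4, 56.7 and 55.5 CPM in non-retrieval replicates 1 to 4. Its groups did not overlap (log2 fold change 0.21, SE 0.07), but the gene did not pass (edgeR adjusted p = 0.126). It was called with the length and GC offset (edgeR adjusted p = 0.0485), with the replicate block (edgeR adjusted p = 0.0115) and with both (edgeR adjusted p = 0.0265). Leaving out retrieval replicate 1 also gave a call for Dpf1 (edgeR adjusted p = 0.0381). Dpf2, the widely expressed relative, had a log2 fold change of 0.15 (SE 0.06; edgeR adjusted p = 0.206), and its groups did not overlap either. Ss18 had a log2 fold change of 0.17 (SE 0.08; edgeR adjusted p = 0.264), Actl6a -0.18 (SE 0.12; edgeR adjusted p = 0.472) and Dpf3, the least abundant SWI/SNF gene, -0.07 (SE 0.18; edgeR adjusted p = 0.88). The accessory subunits Bcl7a, Bcl7b and Bcl7c lay between -0.06 for Bcl7b and -0.04 for Bcl7c, with groups that overlapped.

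Subunits of the 2 other SWI/SNF assemblies were measured as well. In PBAF, which carries a bromodomain scaffold, Arid2 had groups that did not overlap, at 43.2 to 46.3 CPM in retrieval and 36.2 to 43.1 CPM in non-retrieval (log2 fold change 0.19, SE 0.07; edgeR adjusted p = 0.152). Pbrm1, Brd7 and Phf10 had log2 fold changes between 0.00 and 0.05. Brd9, which marks the non-canonical BAF complex, was the 1 member whose retrieval libraries all lay below the non-retrieval ones. It stood at 68.0, 68.6, 64.3 and 59.7 CPM in retrieval replicates 1 to 4, against 72.1, 71.4, 74.3 and 71.5 CPM in non-retrieval replicates 1 to 4. Its log2 fold change was -0.15 (SE 0.06; edgeR adjusted p = 0.21), and -0.17 with the length and GC offset (edgeR adjusted p = 0.0433).

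Levels were compared between genes per length, in TPM computed from the counts and the deposited length of each gene model. The mean over the 8 libraries ran from 1.32 TPM for Baz1a to 379 TPM for Chd3, with a median of 24.8 TPM over the 45 genes, and 37 genes were at 10 TPM or above. In SWI/SNF, the scaffold Smarcc2 was the most abundant at 241 TPM and Dpf3 the least at 2.32 TPM. Smarcd1 followed Smarcc2 at 126 TPM, Smarca4 at 107 TPM and Smarca2 at 88.4 TPM. The neuronal subunits were not uniformly above their counterparts. Actl6b stood at 64.0 ± 5.22 TPM in retrieval and 66.1 ± 6.09 TPM in non-retrieval, and Actl6a at 6.41 ± 1.04 TPM in retrieval and 7.23 ± 0.75 TPM in non-retrieval (SD, n = 4 each). Ss18l1 was at 58.6 ± 3.43 TPM in retrieval and 56.7 ± 1.66 TPM in non-retrieval, against 16.7 ± 1.09 and 14.7 ± 1.17 TPM for Ss18 in the same groups (SD, n = 4 each). Dpf1 was at 42.2 ± 3.51 TPM in retrieval and 36.3 ± 2.09 TPM in non-retrieval, and Dpf2 at 26.1 ± 0.41 TPM in retrieval and 23.4 ± 0.96 TPM in non-retrieval (SD, n = 4 each). Dpf3 lay far below Dpf2, at 2.27 ± 0.52 TPM in retrieval and 2.36 ± 0.22 TPM in non-retrieval (SD, n = 4 each). The 3 called genes were among the 4 least abundant members by TPM, together with Dpf3. The level and rank of Srcap are uncertain, because 61.7% of its exonic bases are shared with Gm42715 while TPM used its full length.

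**Figure D3:**
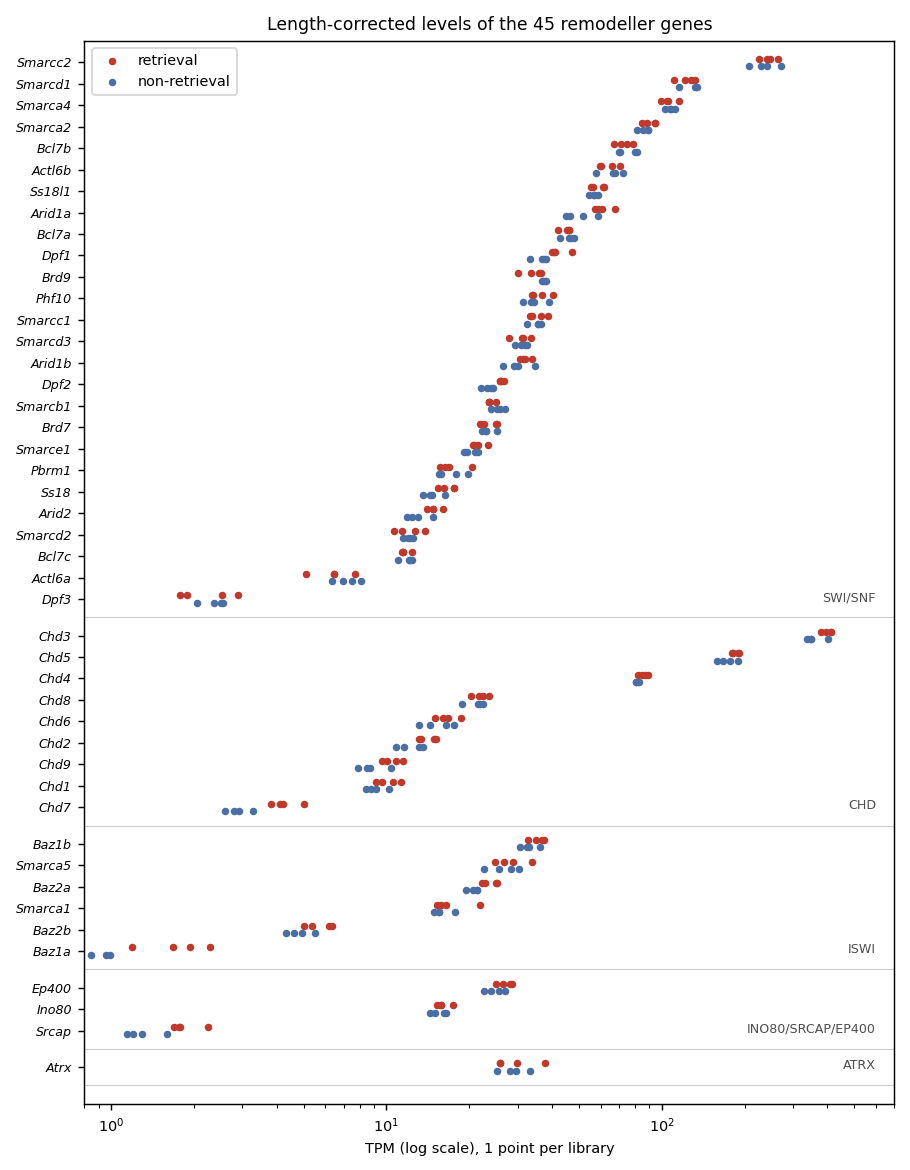
TPM of each of the 45 genes in each library on a log scale, grouped by family and sorted by mean level, with retrieval points above non-retrieval points in each row. Chd3, Smarcc2 and Chd5 are the most abundant, and Baz1a, Srcap, Dpf3 and Chd7 the least. The level of Srcap is uncertain because of the exonic bases shared with Gm42715.

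In the CHD family, Chd7 rose and 8 genes did not pass, where 3.72% of all tested genes were called higher. The values of all 9 were positive, against 47.8% of all tested genes, with a median of 0.14 on the log2 scale. With the length and GC offset 7 were positive and 2 negative, with a median of 0.08. The second class of the family, motors of the NuRD deacetylase complex, held the most abundant members. Chd3 averaged 400 ± 15.6 TPM in retrieval and 359 ± 29.2 TPM in non-retrieval, the neuronal gene Chd5 185 ± 5.53 TPM in retrieval and 173 ± 13.2 TPM in non-retrieval, and Chd4 85.7 ± 2.99 TPM in retrieval and 81.5 ± 0.93 TPM in non-retrieval (SD, n = 4 each). Their log2 fold changes were 0.15 (SE 0.07) for Chd3, 0.09 (SE 0.06) for Chd5 and 0.06 (SE 0.06) for Chd4, at edgeR adjusted p of 0.243 to 0.596. Chd3 was called by limma-voom (adjusted p = 0.0444) and with the replicate block (edgeR adjusted p = 0.0277). In the class of Chd7, Chd9 stood at 71.4, 61.2, 69.6 and 66.4 CPM in retrieval replicates 1 to 4, against 65.5, 56.0, 55.7 and 51.0 CPM in non-retrieval replicates 1 to 4. Replicate 1 was the highest library of each group for Chd9, and the groups overlapped (log2 fold change 0.24, SE 0.08; edgeR adjusted p = 0.099). Chd9 was called by limma-voom (adjusted p = 0.0342) and with the replicate block (edgeR adjusted p = 0.00367). Leaving out non-retrieval replicate 1 also gave a call for Chd9 (edgeR adjusted p = 0.0264). Chd8, an autism risk gene in humans, and Chd6 had log2 fold changes of 0.05 (SE 0.07) and 0.10 (SE 0.08). Of the other class, Chd1, which binds methylated histone H3, had 0.14 (SE 0.08) and its relative Chd2 0.19 (SE 0.07), and Chd2 shares 18.4% of its exonic bases with 1810026B05Rik on the same strand.

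In the ISWI family, Baz1a rose and 5 genes did not pass, where 3.72% of all tested genes were called higher. The 6 values were all positive, against 47.8% of all tested genes, with a median of 0.15 on the log2 scale. All 6 stayed positive under the length and GC offset, with a median of 0.12. The motors Smarca5 (SNF2H) and Smarca1 (SNF2L) had log2 fold changes of 0.08 (SE 0.09) and 0.11 (SE 0.10). The difference between Baz1a and its motor Smarca5 was not tested. Smarca5 averaged 28.6 ± 3.88 TPM in retrieval and 26.7 ± 3.30 TPM in non-retrieval (SD, n = 4 each). Baz2a (TIP5), the partner in the nucleolar remodelling complex, stood at 72.2, 73.8, 66.4 and 69.9 CPM in retrieval replicates 1 to 4, against 62.6, 63.3, 62.8 and 58.3 CPM in non-retrieval replicates 1 to 4. The groups did not overlap for Baz2a (log2 fold change 0.19, SE 0.06; edgeR adjusted p = 0.0928), and DESeq2 called it (adjusted p = 0.0393). Baz2b, whose window at an internal start is printed above, had a log2 fold change of 0.23 (SE 0.09, edgeR adjusted p = 0.161). Baz1b, deleted in Williams syndrome in humans, had 0.09 (SE 0.06, edgeR adjusted p = 0.446). Baz1b was the most abundant ISWI gene, at 34.2 TPM over the 8 libraries.

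Of the remaining ATPases, Srcap alone rose. Ep400, the motor of the TIP60 acetyltransferase complex, averaged 104 ± 5.57 CPM in retrieval and 96.3 ± 6.53 CPM in non-retrieval, and Ino80 30.25 ± 1.33 CPM in retrieval and 29.3 ± 1.45 CPM in non-retrieval (SD, n = 4 each). Their log2 fold changes were 0.11 (SE 0.07; edgeR adjusted p = 0.38) for Ep400 and 0.05 (SE 0.07; edgeR adjusted p = 0.784) for Ino80. Atrx, which deposits histone H3.3 with Daxx, stood at 219, 155, 180 and 161 CPM in retrieval replicates 1 to 4, against 197, 177, 172 and 153 CPM in non-retrieval replicates 1 to 4. The groups overlapped and replicate 1 was the highest library of each (log2 fold change 0.03, SE 0.10; edgeR adjusted p = 0.901).

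Other genes of the same complexes were counted from a list of 64. Of these, 3 rose, 0 fell and 61 did not pass in edgeR (4.69% called, against 4.65% of all tested genes), and the median log2 fold change was 0.01. Bptf, the largest subunit of the ISWI complex NURF, was higher in each retrieval library than in any non-retrieval library, at 142, 139, 135 and 129 CPM in retrieval replicates 1 to 4, against 122, 119, 106 and 92.0 CPM in non-retrieval replicates 1 to 4 (log2 fold change 0.31, SE 0.08; edgeR adjusted p = 0.0308). Trrap, the scaffold that TIP60 shares with other acetyltransferases, stood at 212, 247, 225 and 231 CPM in retrieval, against 185, 209, 188 and 161 CPM in non-retrieval (log2 fold change 0.30, SE 0.07; edgeR adjusted p = 0.0269). Ino80d, a metazoan subunit of INO80, had a log2 fold change of 0.33 (SE 0.08; edgeR adjusted p = 0.0303). The groups did not overlap for these 3 genes, each with a gene model of more than 10 kb. Bptf and Ino80d were called in 4 and Trrap in 2 of the 8 fits without 1 library, whereas Chd7 and Baz1a were called in all 8. With the myelin covariate the adjusted p was 0.327 for Bptf, 0.656 for Trrap and 0.193 for Ino80d in edgeR. Of 12 NuRD subunits none passed in the main edgeR fit, with 0 higher and 1 lower at an unadjusted p under 0.05. Of 7 histone variant genes, among them H2afz, the substrate of SRCAP, none passed in the main edgeR fit, and 0 reached an unadjusted p under 0.05.

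Ratios between related subunits do not depend on the scaling of a library and were compared for 19 pairs with an exact two-sided permutation test over the 70 ways to divide the libraries. No pair passed after adjustment over the 19 pairs (smallest adjusted p = 0.109), and 5 had the smallest p the design allows, 0.0286, which is the case when the groups do not overlap. At least 11 pairs would have had to reach it for any to pass. Baz1a relative to Baz1b differed by 0.90 on the log2 scale, Chd7 relative to Chd8 by 0.50 and Ep400 relative to Srcap by -0.40, retrieval minus non-retrieval. In these 3 pairs the difference lay with the called gene. Arid1a relative to Arid1b had log2 count ratios of 0.71, 0.86, 0.86 and 0.76 in retrieval replicates 1 to 4, against 0.65, 0.62, 0.68 and 0.49 in non-retrieval replicates 1 to 4. The ratio was thus higher in each retrieval library, with a difference of 0.19 (exact permutation p = 0.0286, adjusted p = 0.109). Chd6 relative to Chd9 differed by -0.13, with the same p.

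**Figure D4:**
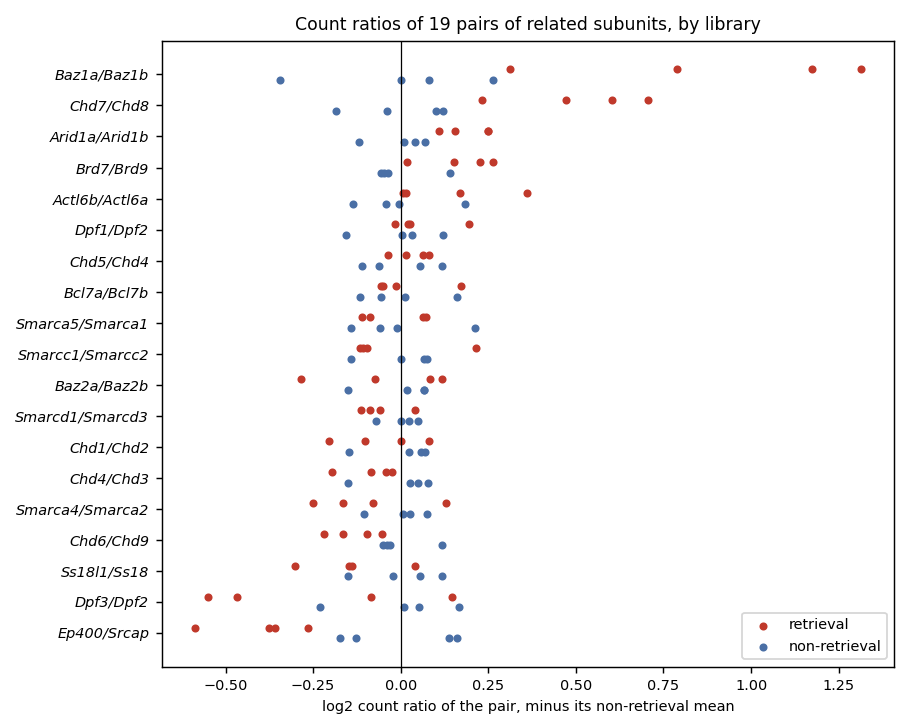
Log2 count ratio of each of the 19 pairs of related subunits in each library, centred on the non-retrieval mean of that pair. Retrieval and non-retrieval points are separate for Baz1a/Baz1b, Chd7/Chd8, Arid1a/Arid1b, Chd6/Chd9 and Ep400/Srcap and overlap for the other 14 pairs.

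The ratios between neuronal SWI/SNF subunits and their counterparts went both ways. The TPM of Actl6b was 10.1 ± 1.20 times that of Actl6a in retrieval and 9.17 ± 0.88 times in non-retrieval, and the TPM of Ss18l1 was 3.52 ± 0.34 times that of Ss18 in retrieval and 3.87 ± 0.30 times in non-retrieval (SD, n = 4 each). The log2 count ratios of these pairs overlapped between groups, with differences of 0.14 for Actl6b over Actl6a (exact permutation p = 0.229) and -0.14 for Ss18l1 over Ss18 (exact permutation p = 0.2). The TPM of Dpf1 was 1.61 ± 0.11 times that of Dpf2 in retrieval and 1.55 ± 0.12 times in non-retrieval, whereas that of Dpf3 was 0.087 ± 0.02 times that of Dpf2 in retrieval and 0.101 ± 0.01 times in non-retrieval (SD, n = 4 each). These ratios overlapped between groups too, with log2 differences of 0.06 for Dpf1 over Dpf2 (exact permutation p = 0.486) and -0.24 for Dpf3 over Dpf2 (exact permutation p = 0.229). Smarca4 stood at 1.18 ± 0.14 times the TPM of Smarca2 in retrieval and 1.25 ± 0.06 times in non-retrieval (SD, n = 4 each; exact permutation p = 0.343 for the log2 count ratio).

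The fold changes moved with the length of the gene models. The 45 genes had a median gene model of 7832 bases, against 4032 bases for all tested genes, and 41 of them were longer than that. The 15 members of 10 kb or more were all positive (median log2 fold change 0.19), as were 70.7% of the 1428 tested genes of that length (median 0.09). Of these 15 members 2 were called higher, against 10.1% of the tested genes of that length. The 9 members under 5 kb had a median of -0.05, and the 10371 tested genes under 5 kb a median of -0.04. With an offset for length and GC content, the members' median was 0.01 and 27 were positive. Chd7 (0.45, edgeR adjusted p = 0.00288), Baz1a (1.01, edgeR adjusted p = 0.00217) and Srcap (0.40, edgeR adjusted p = 0.044) were still called higher under that offset, and Dpf1 (0.16, edgeR adjusted p = 0.0485) was called as well.

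**Figure D5:**
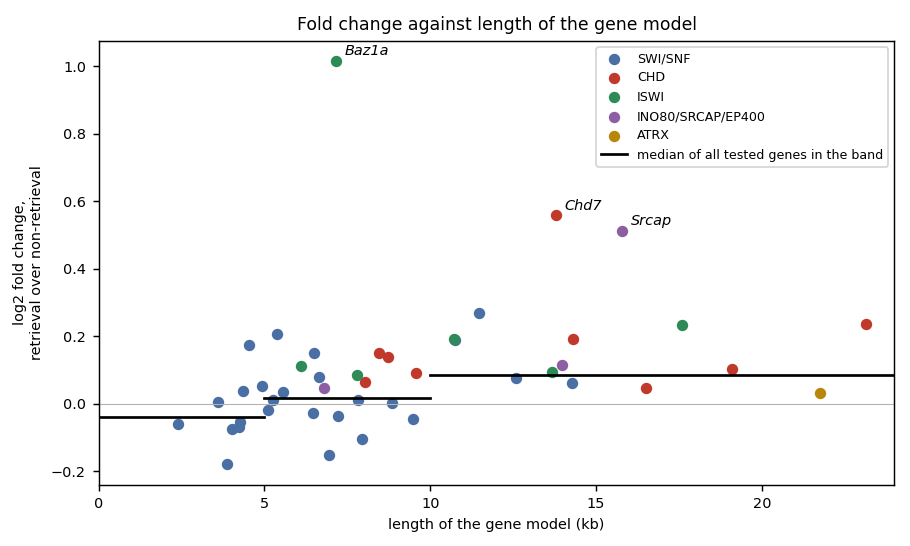
Log2 fold change of each member against the length of its gene model in kb, coloured by family. Black lines give the median of all tested genes under 5 kb, from 5 to 10 kb and from 10 kb, which lie at -0.04, 0.02 and 0.09.

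Libraries of 1 group differed in the members by GC content. Among the 10 members lowest in GC (40.3% to 45.3%), which include Atrx, Smarca5 and Smarca1, retrieval replicate 1 was the highest retrieval library for 8 and non-retrieval replicate 1 the highest non-retrieval library for 7. Among the 10 members highest in GC (55.1% to 59.6%), which include Dpf1, Actl6b and Chd5, retrieval replicate 1 was the lowest retrieval library for 9. Non-retrieval replicate 4 was the lowest non-retrieval library for 9 of the 10 members lowest in GC. The offset fit given above takes such differences in length and GC between libraries into account.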

How the data were processed

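The authors' deposited table gives raw read counts per gene, not normalized, for 8 libraries of mouse medial prefrontal cortex. Alignment used HISAT2 2.0.5 and counting featureCounts 1.5.0-p3, on GRCm38, per the submitters' processing notes. Strand setting and annotation release: not given in the sources used here. Columns were matched to samples by title.

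Genes passing filterByExpr in edgeR 4.0.16 (R 4.3.3) were scaled by TMM and compared with glmQLFit (robust) and glmQLFTest, two-sided, with p-values adjusted by Benjamini-Hochberg across the tested genes. CPM use the same factors, log2 CPM a prior count of 2, and TPM the deposited gene length. The fit was tested on simulated counts. Libraries of a group differed beyond sampling noise, by a mean chi-square of at least 7.20 per gene, so none was a duplicate. DESeq2 1.42.0, limma-voom (limma 3.58.1), other scalings, filters and covariates, and leaving out libraries were alternatives. GC content came from GENCODE M21 transcripts (GRCm38) and was available for 16727 tested genes (99.9%), all members included. Ratios used counts plus 0.5.

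All members are accounted for. Described in full are the called members, those with the smallest p (20 in all) and, by family, the most and least abundant by TPM. Of other lists, the called related genes and oligodendrocyte precursor markers are named, up to 4 each. Called genes of the remaining lists are not all named, among them 1 of 10 GABAergic markers, which was lower. The members and lists were chosen with earlier results of these data known. Arid1b, Smarca4, Smarca2, Actl6b, Ss18l1 and Atrx, among others, are described for their roles.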

Additional observations from a re-analysis of the deposited data

Results flagged for a closer look

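A library lay far from the other 3 of its group in 9 of 128 sets of 4 values checked (45 genes and 19 ratios in each group), where chance alone flags about 1 in 20. Smarcd1, a SWI/SNF core subunit, was at 126 CPM in non-retrieval replicate 1, against 150 to 151 CPM in the other 3. Dpf1 was at 48.7 CPM in the same library, against 55.5 to 56.7 CPM. In non-retrieval replicate 4, Chd8 was at 87.0 CPM, against 99.96 to 101 CPM in the other 3, and Baz2a at 58.3 CPM, against 62.6 to 63.3 CPM. Smarca1, the SNF2L motor of ISWI, was at 35.9 CPM in retrieval replicate 1, against 26.6 to 27.9 CPM in the other 3. Srcap was at 9.72 CPM in retrieval replicate 2, against 7.54 to 7.74 CPM in the other 3. The log2 count ratio of Smarcc1 to Smarcc2 was -2.04 in retrieval replicate 1, against -2.38 to -2.35 in the other 3. That of Brd7 to Brd9 was -0.95 in non-retrieval replicate 4, against -1.14 to -1.12, and that of Chd6 to Chd9 was 0.63 in non-retrieval replicate 2, against 0.47 to 0.49.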

How the results depend on the processing

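Chd7 and Baz1a were called under each other scaling, filter and tool and with any 1 library left out; with the myelin covariate or without retrieval replicates 2 and 4 (a choice made after seeing the data), Baz1a alone of the members was called. Members called higher numbered 5 with DESeq2 (Chd7, Baz1a, Srcap, Arid1a and Baz2a), 7 with limma-voom, which also called 1 lower, 6 at adjusted p under 0.1, 1 with the myelin covariate and 1 without retrieval replicates 2 and 4. With the length and GC offset 1 member was called lower, and the members' median was 0.0119 in place of 0.06. Leaving out 1 library gave 2 to 5 members higher and 0 lower, the highest count without retrieval replicate 1. Chd3 had a log2 fold change of -0.0055 with the myelin covariate. Over all tested genes, 623 were higher and 156 lower. These counts were 1110 and 509 with limma-voom, 892 and 470 with the length and GC offset, 113 and 12 with the myelin covariate, and 359 and 73 without retrieval replicates 2 and 4; at adjusted p under 0.1, 893 were higher and 290 lower. Leaving out 1 library gave 287 to 1055 higher and 51 to 355 lower. Related genes called higher numbered 5 with limma-voom (2 lower), 0 with the myelin covariate and 1 without retrieval replicates 2 and 4, 1 was lower with the length and GC offset, and leaving out 1 library gave 0 to 4 higher and 0 to 2 lower. The cause of these shifts was not tested. No label says that replicate numbers pair libraries, and deviations of same-numbered libraries correlated above 0.1 in 1 of 4 pairs, though all 8 libraries correlated best with their own number. With the replicate number as a block, 11 members were higher, with 1390 higher and 630 lower genes and 6 higher and 3 lower related genes; with the block and the length and GC offset together, 5 members were higher and 1 lower (median 0.0115), with 1243 and 814 genes and 6 and 2 related genes. No pair ratio passed under its alternatives, which says little of stability: with the block the fewest arrangements are left and no pair could have passed (smallest adjusted p = 0.339 in an exact permutation test). Baz1a, at 33 to 118 reads per library, is the least precisely measured called gene.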
